A study of Homo sapiens with 18 samples.

Results

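The 44 genes described here are the hypoxia-inducible factor (HIF) subunits, their oxygen sensors, textbook HIF targets and the enzymes of glycolysis. They were chosen by gene symbol in a table of gene counts, and all 44 were among the 19038 genes of 61552 that had enough counts to test. The counts come from RNA-seq of HCT116, a human colorectal cancer cell line. Its cells carried 1 of 3 knock-in versions of IκBα, the cytoplasmic inhibitor of NF-κB: the N108 mutant, the M3 mutant (alanines in place of H84, E85 and E86) or the wild-type protein (WT). Each version was given human TNF at 0.1 µg/mL for 40 min or was left untreated, with 3 libraries in each of the 6 groups. The wild-type knock-in shares the knock-in step with both mutants. The labels name no more than 1 line of each version and no oxygen level, so the mutation and the line that carries it cannot be told apart. They do not say whether the 3 libraries of a group were separate cultures, so each p-value measures the spread between those libraries, which may be technical.

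HIF is a pair of proteins, an oxygen-regulated alpha subunit (HIF1A or EPAS1) and its constant partner ARNT. With oxygen present, the EGLN hydroxylases mark the alpha subunit for destruction, so HIF is controlled mainly through protein stability and less through its mRNA. In low oxygen the pair binds a short core motif, ACGTG or GCGTG, near genes for glucose uptake, glycolysis, lactate export, pH control and vessel growth, many of which colorectal tumours express.

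Libraries held 49021907 to 76947190 counts, and the 44 genes took between 1.594% and 2.322% of them. The mRNA of the edited gene, NFKBIA, averaged 30.25 ± 1.82 CPM, the unit used throughout for a gene's share of a library's counts, in untreated N108 cells, 77.92 ± 1.174 in untreated M3 cells and 91.57 ± 4.575 in untreated WT cells (SD, n = 3 each), which does not check a change of a few residues. All 6 epithelial markers were present, summing to between 3949 and 7283 CPM in a library. Of the other markers, 4 of 6 for fibroblasts, 5 of 6 for leukocytes and 3 of 4 for endothelium lay below 1 CPM in all libraries, and DCN and LUM were at 0 throughout. The fibroblast markers still summed to between 19.77 and 39.1 CPM in a library, so not all of them were absent. The leukocyte markers summed to between 0.4725 and 4.42 CPM and the endothelial markers to between 0.9948 and 2.29. In bulk RNA, fewer cells expressing a gene and less RNA per cell cannot be told apart.

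The promoters of several genes on the list hold the HIF core motif, and 4 of them are shown. They were picked from genes higher in both untreated mutants, with 1 promoter window and an ACGTG in the 250 bases before the start. Of those, the 4 with the largest log2 fold change in untreated N108 cells against WT were taken. The sequences are from RefSeq on GRCh38.p14, are written 5′ to 3′ on the gene's own strand, and end 1 base before the RefSeq start. Capitals mark the ACGTG core, which reads CACGT where it lies on the other strand.
ANGPTL4: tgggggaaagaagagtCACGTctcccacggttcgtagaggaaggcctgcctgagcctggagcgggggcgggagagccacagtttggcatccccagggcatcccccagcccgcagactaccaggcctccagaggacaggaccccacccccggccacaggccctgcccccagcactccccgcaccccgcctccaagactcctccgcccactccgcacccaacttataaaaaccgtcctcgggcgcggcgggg
CA9: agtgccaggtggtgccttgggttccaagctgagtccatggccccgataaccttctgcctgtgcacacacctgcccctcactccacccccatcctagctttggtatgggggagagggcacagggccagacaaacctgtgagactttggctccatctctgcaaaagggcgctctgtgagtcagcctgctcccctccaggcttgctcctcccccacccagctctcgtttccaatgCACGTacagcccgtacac
P4HA1: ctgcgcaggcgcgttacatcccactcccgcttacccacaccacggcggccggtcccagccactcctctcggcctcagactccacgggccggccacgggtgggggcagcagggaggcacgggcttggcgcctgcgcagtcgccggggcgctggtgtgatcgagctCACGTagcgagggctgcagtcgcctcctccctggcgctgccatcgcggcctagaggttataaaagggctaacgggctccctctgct
MIR210HG: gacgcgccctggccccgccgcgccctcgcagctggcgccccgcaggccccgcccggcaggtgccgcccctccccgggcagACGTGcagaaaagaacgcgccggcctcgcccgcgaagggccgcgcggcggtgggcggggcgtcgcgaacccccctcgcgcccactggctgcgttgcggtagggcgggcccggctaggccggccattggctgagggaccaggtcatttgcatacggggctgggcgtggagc

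The ANGPTL4 window is chr19:8363905-8364154 on the plus strand, with the motif at positions -234 to -230 from the start. The CA9 window is chr9:35673678-35673927, also on the plus strand, with the motif at -18 to -14. The P4HA1 window is chr10:73096867-73097116 on the minus strand, with the motif at -86 to -82. The MIR210HG window is chr11:568458-568707, also on the minus strand, with the motif at -170 to -166. RefSeq promoter windows were at hand for 39 of the 44 genes. In full they run from 250 bases before the start to a little past it, so matches on both sides of the start count here. Of the 39 genes, 24 (61.5%) had ACGTG on either strand in at least 1 window, against 24.9% of 27305 genes in the whole table. Counted by window, 29 of 70 (41.4%) held it, against 21.4% of 35116. The windows of these genes were richer in GC, with a median of 69.5% against 58.7%. Among windows of 47.3% to 78.5% GC the shares were 37.5% of 56 and 24.5% of 24826. With GCGTG counted as well, which also matches many GC-rich sequences, the shares were 70% of the 70 windows and 48.4% of all. ACGTG lay in a window of 14 of the 23 genes with a window that were higher in both mutants and of 10 of the other 16. A match is a run of letters and shows no binding.

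Untreated mutant cells of both kinds had more mRNA of most HIF targets than untreated WT cells. Relative to WT, 32 of the 44 genes were higher and 4 lower in N108, against 20.9% higher and 21.6% lower among all 19038 genes tested (42.4% in either direction). In M3, 28 were higher and 8 lower, against 26.1% and 26.8% of all genes (52.9% in either direction). The median log2 fold change of the 44 was 0.410 in N108 and 0.263 in M3, where all genes had medians of 0.005 and 0.004. These calls are from edgeR's quasi-likelihood test at a Benjamini-Hochberg adjusted p under 0.05 over all genes. Both comparisons use the same 3 WT libraries. Many genes differ between these lines, and more so among well-expressed ones: at 10 CPM or more, 52.23% of genes were called in N108 and 62.58% in M3, and of the 40 listed genes at that level 32 were called in each. The 3 libraries of the mutant lay wholly apart from those of WT for all 36 genes called in N108 and for 35 of 36 in M3, where ERO1A overlapped. Of all genes called, 97.83% in N108 and 96.1% in M3 were free of overlap, so this is no mark of the list.

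**Figure D1:**
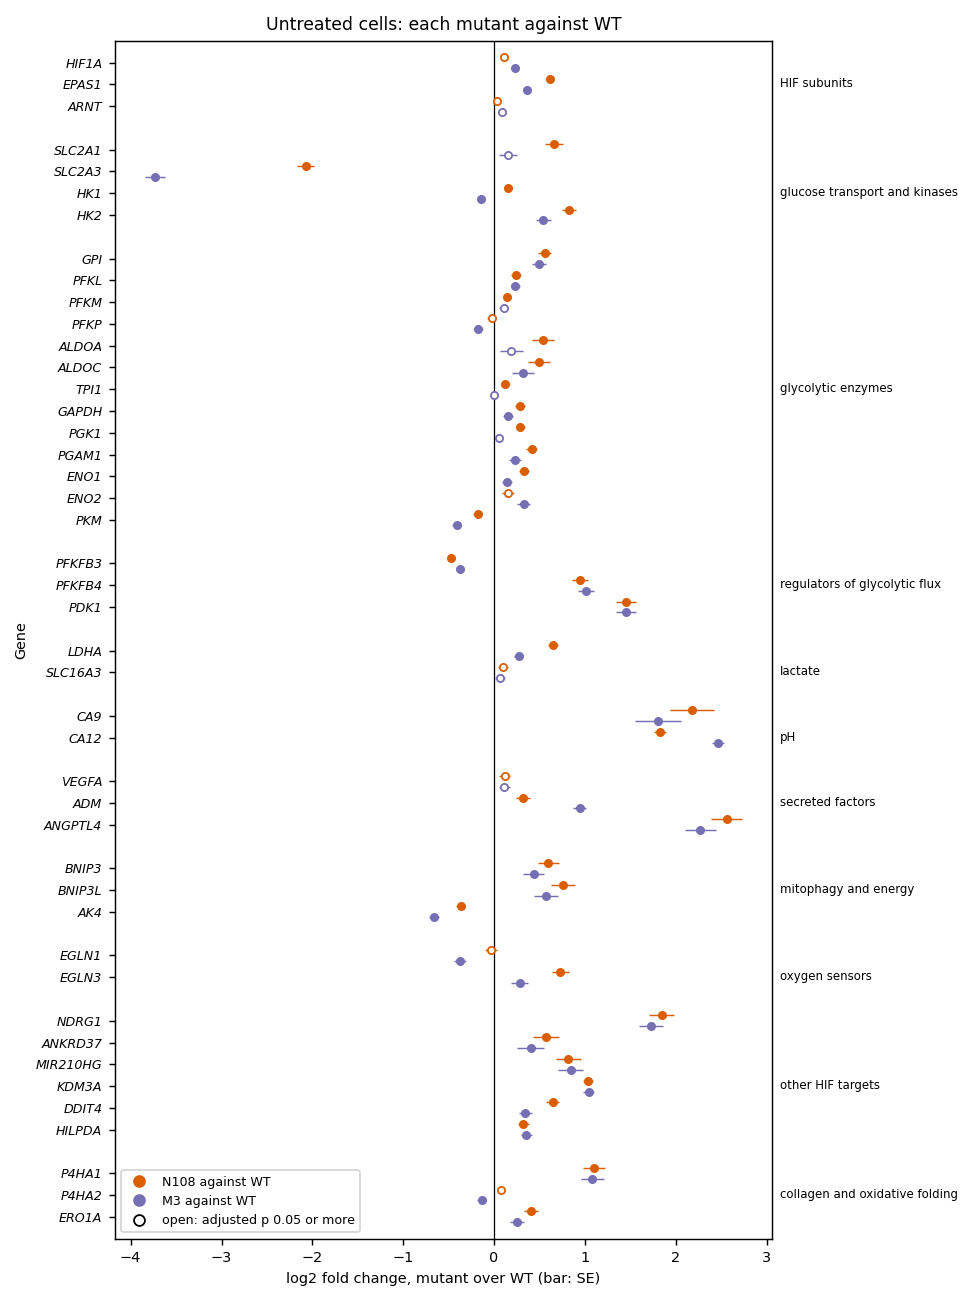
Log2 fold change of each of the 44 genes in untreated N108 cells and in untreated M3 cells against untreated WT cells, grouped by role, with bars of 1 SE from edgeR and filled points for genes called at an adjusted p under 0.05. ANGPTL4, CA9, CA12 and NDRG1 stand far to the right in both mutants and SLC2A3 far to the left, at -2.07 in N108 and -3.73 in M3.

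Of the HIF subunits, EPAS1 was higher in both mutants, HIF1A passed the test in M3, and ARNT in neither. HIF1A had 226.1, 228 and 218.1 CPM in untreated N108 cells, 247.1, 253.4 and 230.5 in untreated M3 cells and 213.8, 209.3 and 200 in untreated WT cells. Each mutant lay above WT without overlap, but only M3 passed the test (log2 fold change 0.23, SE 0.048, adjusted p = 0.00021 by edgeR's quasi-likelihood test), while N108 stood at 0.11 (adjusted p = 0.07). EPAS1, which encodes HIF-2-alpha, had 125, 119.6 and 123.9 CPM in N108, 106.6, 103.1 and 100.5 in M3 and 80.29, 81.21 and 79.6 in WT. The 3 lines did not overlap for EPAS1, and it was higher by 0.61 in N108 (SE 0.044, adjusted p = 6e-12) and by 0.36 in M3 (SE 0.044, adjusted p = 7.6e-08). ARNT had 59.41, 61.25 and 60.78 CPM in N108, 61.94, 63.98 and 61.43 in M3 and 58.41, 60.09 and 58.42 in WT. ARNT did not pass the test in either mutant (adjusted p = 0.53 in N108 and 0.11 in M3).

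The oxygen sensors differed in direction. EGLN3, a hydroxylase that is itself a HIF target, averaged 16.39 ± 0.983 CPM in N108, 12.01 ± 0.982 in M3 and 9.911 ± 0.928 in WT (SD, n = 3 each), and was called higher in both mutants (log2 fold changes 0.73 and 0.28). The M3 call for EGLN3 was lost without M3 replicate 1 (adjusted p = 0.08) or WT replicate 2 (adjusted p = 0.1). EGLN1, the main hydroxylase of HIF1A in normal oxygen, averaged 37.83 ± 1.779 CPM in N108, 29.9 ± 1.023 in M3 and 38.83 ± 4.103 in WT. Its level was lower in M3 (log2 fold change -0.37, SE 0.069, adjusted p = 4.5e-05) and was not called in N108 (-0.03, adjusted p = 0.72).

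Of the 3 secreted factors, ANGPTL4 and ADM were higher in both mutants and VEGFA was not called. ANGPTL4 (chr19:8363289-8374373), a secreted inhibitor of lipoprotein lipase, had 28.85, 26.58 and 24.91 CPM in untreated N108 cells, 22.15, 19.96 and 23.68 in untreated M3 cells and 4.481, 4.344 and 4.86 in untreated WT cells. Every mutant library was at least 4 times the level of every WT library. The log2 fold changes were 2.56 in N108 (SE 0.17, adjusted p = 1.3e-08) and 2.27 in M3 (SE 0.17, adjusted p = 3.1e-08). ADM, the vessel-dilating peptide adrenomedullin, had 31.01, 31.86 and 30.32 CPM in N108, 47.63, 45.41 and 50.59 in M3 and 24.06, 23.69 and 27.16 in WT. ADM was highest in M3, with no overlap between the lines, at log2 fold changes of 0.32 in N108 (adjusted p = 0.0012) and 0.94 in M3 (adjusted p = 6.6e-11). VEGFA, the angiogenic growth factor and a standard HIF target, had 50.03, 52.3 and 52.73 CPM in N108, 53.7, 50.29 and 50.41 in M3 and 48.26, 46.41 and 48.34 in WT. Both mutants lay narrowly above WT, and neither passed the test (0.12, adjusted p = 0.11 in N108, and 0.11, adjusted p = 0.12 in M3).

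Both membrane carbonic anhydrases, which hydrate the carbon dioxide of glycolytic cells at their surface, were several-fold higher in the mutants. CA12 (chr15:63321378-63382161) had 20.93, 19.04 and 19.19 CPM in N108, 29.84, 31.76 and 30.36 in M3 and 5.498, 5.434 and 5.74 in WT. The 3 lines were well apart, at log2 fold changes over WT of 1.83 in N108 (SE 0.065, adjusted p = 1e-18) and 2.47 in M3 (SE 0.065, adjusted p = 4.7e-22). CA9 (chr9:35673856-35681159), widely used as a hypoxia marker, was among the least expressed of the 44 genes. It had 1.242, 1.094 and 1.08 CPM in N108, 0.8826, 0.9427 and 0.8063 in M3 and 0.2318, 0.2303 and 0.3 in WT. CA9 thus stayed near 1 CPM even where it was higher, with log2 fold changes of 2.18 in N108 (SE 0.24, adjusted p = 2.7e-08) and 1.81 in M3 (SE 0.25, adjusted p = 8.8e-07). Of its 1670 exon bases, 643 lie antisense to ARHGEF39, and no source used here says whether strand was used when reads were counted, so reads of the pair cannot be told apart.

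A group of 6 other HIF targets, placed under no other role here, were all higher in both mutants. NDRG1, a stress-induced gene that hypoxia raises in many cell types, had 368, 357.5 and 336.8 CPM in N108, 347.3, 314.6 and 317.2 in M3 and 103.4, 88.95 and 103.8 in WT. The mutants overlapped each other and stood more than 3-fold above every WT library, at log2 fold changes of 1.84 (SE 0.14, adjusted p = 9.8e-08) and 1.73 (SE 0.14, adjusted p = 1.1e-07). KDM3A, a histone demethylase, averaged 150 ± 10.79 CPM in N108, 150.7 ± 10.68 in M3 and 73.34 ± 2.541 in WT. MIR210HG, the host transcript of the hypoxia-induced microRNA miR-210, had 9.549, 10.16 and 8.505 CPM in N108, 10.11, 8.923 and 9.798 in M3 and 5.395, 5.097 and 5.6 in WT. MIR210HG was higher by 0.81 in N108 and by 0.84 in M3 (adjusted p = 8.9e-05 and 4.5e-05). DDIT4, an inhibitor of mTOR signalling, was higher by 0.64 and 0.34. HILPDA, a lipid-droplet protein, was higher by 0.32 and 0.36, and ANKRD37, an ankyrin-repeat gene, by 0.57 and 0.40. ANKRD37 shares 909 of 2580 exon bases with UFSP2 on the other strand, and its M3 call was lost without M3 replicate 1 or 2 or WT replicate 2 (adjusted p = 0.052, 0.1 and 0.17).

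**Figure D2:**
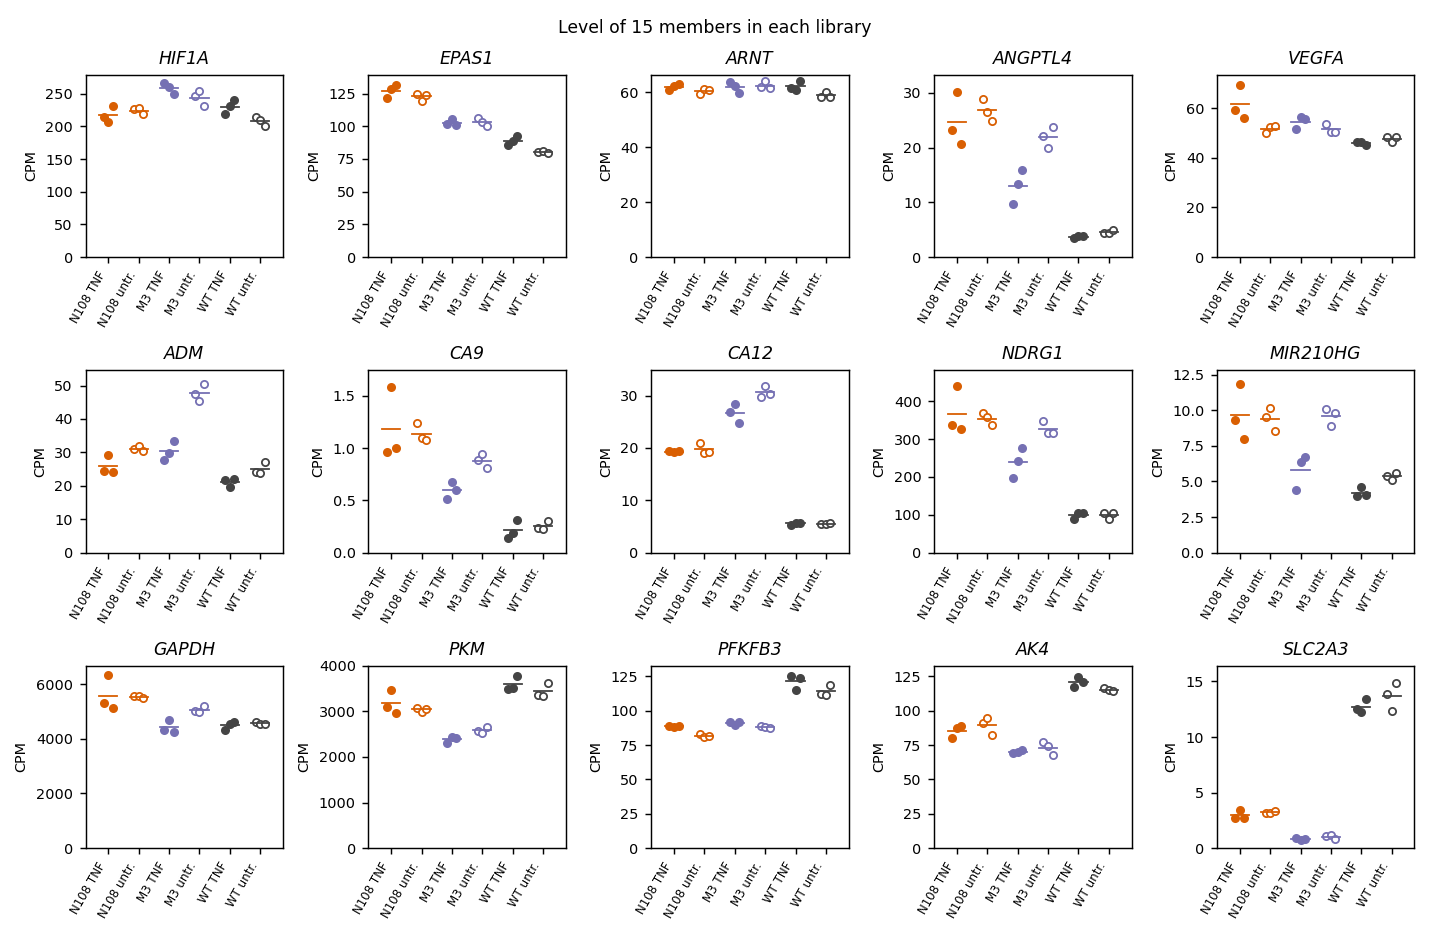
CPM of 15 of the 44 genes in each of the 18 libraries (points), by line and treatment, with a line at the mean of the 3 libraries; each vertical axis starts at 0. ANGPTL4, CA9, CA12 and NDRG1 are low in all 6 WT libraries, SLC2A3 and AK4 are high there, and ANGPTL4, ADM and MIR210HG are lower with TNF in M3 cells. By less and without a call, all of these are also lower with TNF in WT cells, and ADM in N108 cells.

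The mitophagy receptors BNIP3 and BNIP3L, which mark mitochondria for removal, were higher in both mutants, by 0.60 and 0.76 in N108 and by 0.43 and 0.58 in M3. AK4, a mitochondrial adenylate kinase counted among HIF targets, went the other way. It had 91.14, 94.46 and 82.66 CPM in N108, 76.98, 74.2 and 67.52 in M3 and 116.7, 115.4 and 114.3 in WT. No mutant library reached the lowest WT library, and AK4 was lower by -0.37 in N108 (SE 0.053, adjusted p = 2.1e-06) and by -0.66 in M3 (SE 0.053, adjusted p = 3.2e-11). Of the enzymes for collagen and disulfide formation, P4HA1, a collagen prolyl hydroxylase subunit, was higher by 1.10 and 1.08, and ERO1A, which oxidises disulfide isomerase in the endoplasmic reticulum, by 0.41 and 0.26. P4HA2, the sister subunit of P4HA1, was not called in N108 (0.07) and was lower in M3 (-0.13, adjusted p = 0.023), a call lost without WT replicate 1 or 3 or M3 replicate 2 or 3.

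Glucose entry showed opposite changes in the transporters. SLC2A3 (GLUT3, chr12:7919230-7936275), a high-affinity transporter, had 3.155, 3.205 and 3.386 CPM in N108, 1.056, 1.17 and 0.8413 in M3 and 13.84, 12.37 and 14.82 in WT. WT was far above both mutants, and SLC2A3 was lower by -2.07 in N108 (SE 0.092, adjusted p = 1.7e-16) and by -3.73 in M3 (SE 0.11, adjusted p = 1.1e-20), the largest decreases among the 44 genes. SLC2A1 (GLUT1), the transporter of most tumours, averaged 335.5 ± 31.99 CPM in N108, 236.6 ± 9.664 in M3 and 212.5 ± 5.484 in WT, and was higher in N108 (0.66, adjusted p = 8.2e-05) but not called in M3 (0.15, adjusted p = 0.22). SLC2A1 was also higher in N108 than in M3 in the direct comparison (0.50, adjusted p = 0.0014). HK2, the inducible hexokinase, was higher in both mutants (0.82 and 0.54). HK1, its constitutive relative, was higher in N108 (0.16, adjusted p = 0.0067) and lower in M3 (-0.15, adjusted p = 0.0077). The HK1 calls were lost without WT replicate 1 in N108 (adjusted p = 0.059) and without WT replicate 3 in M3 (adjusted p = 0.067).

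Of the 13 enzymes between glucose phosphate and pyruvate, 10 were higher and 1 lower in N108, and 7 were higher and 2 lower in M3. All 13 lay above 10 CPM, where 52.23% of genes were called in N108 and 62.58% in M3, and the 9 enzymes called in M3 (69.23%) are close to that share. Changes were smaller than for the targets above, with medians of 0.28 and 0.15. Summed, the 13 enzymes took 15947 to 16248 CPM in the untreated N108 libraries, 14118 to 14748 in the untreated M3 libraries and 13923 to 14375 in the untreated WT libraries, so N108 stood above both others while M3 and WT overlapped. GAPDH, often used as a loading control, had 5577, 5562 and 5490 CPM in N108, 5017, 4979 and 5185 in M3 and 4599, 4551 and 4541 in WT. The 3 lines did not overlap for GAPDH, which was higher by 0.28 in N108 (SE 0.055, adjusted p = 0.00015) and by 0.15 in M3 (SE 0.055, adjusted p = 0.025). The M3 call for GAPDH was lost without M3 replicate 3 or WT replicate 2 or 3 (adjusted p = 0.064, 0.061 and 0.061).

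GPI, which interconverts glucose phosphate and fructose phosphate, had the largest increase of these enzymes in each mutant (log2 fold changes 0.56 and 0.49). It averaged 999.6 ± 42.4 CPM in N108, 958 ± 44.74 in M3 and 680 ± 11.83 in WT. PGAM1, ENO1 and PFKL were higher in both mutants, by 0.41, 0.33 and 0.24 in N108 and by 0.23, 0.14 and 0.23 in M3. The ENO1 call in M3 was lost without M3 replicate 1 or 3 or WT replicate 1 or 2 (adjusted p = 0.052, 0.061, 0.07 and 0.071). ALDOC was called higher in both (0.49 and 0.32), but in M3 leaving out any of the 6 libraries compared ended its call. PGK1, ALDOA, PFKM and TPI1 were higher in N108 (0.29, 0.54, 0.14 and 0.12) and not called in M3, and of these PGK1 and ALDOA also differed between N108 and M3. The TPI1 call was lost when any of the 6 libraries was left out, with DESeq2 (adjusted p = 0.054) and with its size factors (adjusted p = 0.052), and the PFKM call without N108 replicate 3 or WT replicate 1 (adjusted p = 0.073 for each). ENO2 was higher in M3 (0.33) and PFKP lower (-0.17), without a call in N108, and PFKP also differed between N108 and M3. ALDOA shares 1657 of its 3916 exon bases with another gene on the same strand, so its level is uncertain.

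PKM, the pyruvate kinase that ends the pathway, was the 1 enzyme lower in both mutants. It had 3081, 2988 and 3060 CPM in N108, 2572, 2527 and 2663 in M3 and 3366, 3343 and 3625 in WT. The order WT, N108, M3 held without overlap, with log2 fold changes of -0.18 in N108 (SE 0.050, adjusted p = 0.005) and -0.41 in M3 (SE 0.050, adjusted p = 8.3e-08). LDHA, which turns pyruvate into lactate, averaged 1653 ± 114.3 CPM in N108, 1272 ± 66.23 in M3 and 1055 ± 25.71 in WT and was higher in both (0.65, adjusted p = 1.2e-10, and 0.27, adjusted p = 0.00012). SLC16A3, the lactate exporter, was not called in either (0.10 and 0.07).

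The enzymes that set the rate of the pathway split. PFKFB3 and PFKFB4 both make and remove the fructose bisphosphate that activates phosphofructokinase. PFKFB3 had 83.12, 80.7 and 81.9 CPM in N108, 88.85, 87.95 and 87.34 in M3 and 112.4, 111.2 and 118.4 in WT. PFKFB3 was thus lower in both mutants without overlap, by -0.48 in N108 (SE 0.042, adjusted p = 4.4e-10) and by -0.37 in M3 (SE 0.042, adjusted p = 2.5e-08). PFKFB4 was higher, at 61.62 ± 3.636 CPM in N108, 64.52 ± 3.511 in M3 and 32.04 ± 1.78 in WT (0.94 and 1.01). PDK1, a kinase that inhibits pyruvate dehydrogenase, averaged 41.99 ± 5.79 CPM in N108, 41.94 ± 4.67 in M3 and 15.37 ± 0.706 in WT, with log2 fold changes of 1.45 in each mutant (adjusted p = 1e-08 and 5.7e-09).

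Different genes were set side by side per kilobase of exon, counting all annotated exons of a gene. That length can exceed the length of the mRNA present, so the order of genes on this scale is approximate. The order along the pathway was much the same in the 3 lines. GAPDH led with 1859 CPM per kb in untreated N108 cells, 1698 in M3 and 1531 in WT, and ENO1 came second with 648.3, 571 and 516.6. PKM was next in WT at 401.9, with 355 in N108 and 301.9 in M3, where TPI1 (316.2) stood above it. LDHA had 266.2, 204.9 and 170 in the same order, and PGK1 152.7, 129.4 and 124.9. At the other end, SLC2A3 had 0.53 CPM per kb in N108, 0.17 in M3 and 2.22 in WT, and CA9 had 0.68, 0.53 and 0.15.

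**Figure D3:**
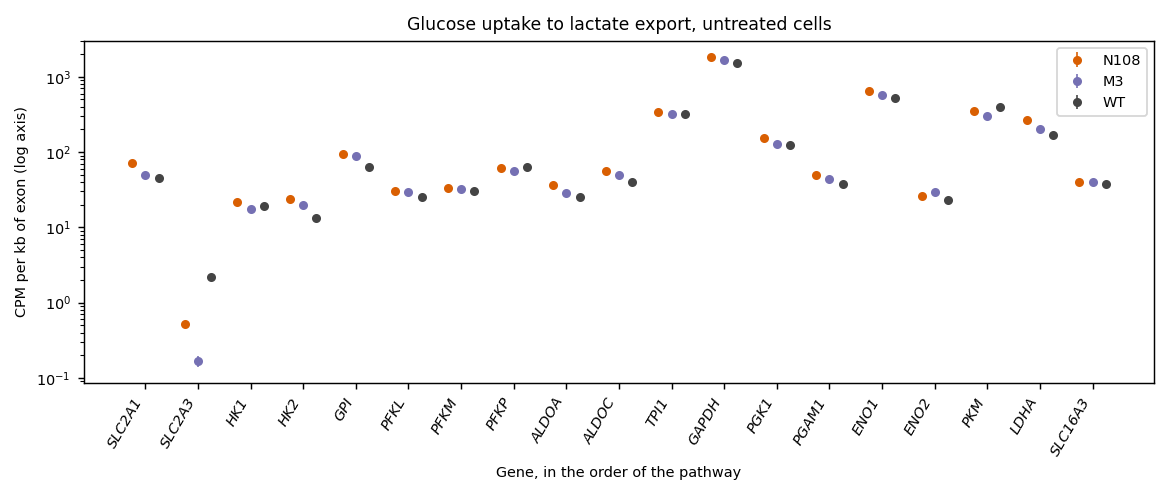
Mean CPM per kb of exon in untreated N108, M3 and WT cells for the genes from glucose uptake to lactate export, in pathway order on a log axis. GAPDH is highest in each line (1859, 1698 and 1531 CPM per kb), and SLC2A3 is lowest and spread widest between lines (0.53, 0.17 and 2.22 CPM per kb).

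The mutants were also compared with each other. In untreated cells 17 of the 44 genes were higher and 2 lower in N108 than in M3, against 16.4% and 15.0% of all genes (31.5% in either direction), with a median of 0.156. Higher in N108 were the pathway genes LDHA (0.38), PGK1 (0.24), PKM (0.23), HK1 (0.30) and SLC2A1 (0.50), EPAS1 (0.25), and both oxygen sensors, EGLN1 (0.34) and EGLN3 (0.45). SLC2A3, although low in both, was higher in N108 by 1.66 (SE 0.13, adjusted p = 7.1e-11). The 2 lower genes were CA12 (-0.64, adjusted p = 1.1e-09) and ADM (-0.62, adjusted p = 2.9e-07). For ANGPTL4 (0.29, SE 0.15), NDRG1 (0.12, SE 0.13), PDK1 (0.00, SE 0.10) and KDM3A (-0.01, SE 0.058) the mutants did not differ by this test, which does not show that they are alike. N108 had the highest of the 3 untreated means for 29 of the 44 genes, and WT had the lowest for 35. The HK2, PFKP, ALDOA, PGAM1 and ENO1 calls of this comparison were each lost when at least 1 library was left out.

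N108 and WT were also compared in their TNF libraries, which are of the same lines and share a fit with the untreated ones. There, 34 of the 44 genes were higher and 4 lower in N108, against 23.0% and 23.6% of all genes (46.7% in either direction), with a median of 0.416. The 3 libraries of each line did not overlap for 36 of the 38, as for 92.25% of all genes called. N108 replicate 2 stood apart: its 44 genes summed to 23491 CPM, against 20520 and 19549 in replicates 1 and 3, and 33 of the 44 were highest in it. SLC2A1, for example, had 331.1, 442.5 and 328.5 CPM in these libraries. Without N108 replicate 2, 32 genes were higher and 4 lower. Of the genes called in untreated cells, 31 were again higher and the same 4, SLC2A3, PFKFB3, PKM and AK4, again lower, and none changed direction. VEGFA now passed (0.42, SE 0.059, adjusted p = 1.5e-06), at 59.34, 69.47 and 55.96 CPM in N108 with TNF and 46.3, 46.54 and 44.99 in WT with TNF. The separation had no overlap, though N108 replicate 2 was well above the others.

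Fewer genes were higher in M3 with TNF. There, 19 genes were higher and 9 lower than in WT with TNF, against 26.9% and 27.8% of all genes (54.7% in either direction), with a median of 0.115. At 10 CPM or more, 25 of 40 listed genes were called, where 64.31% of all genes were, so the count was no higher than among genes of like level. The groups did not overlap for 26 of the 28, as for 96.36% of all genes called. Of the genes called in untreated cells, 17 were again higher and 8 again lower. EGLN3 was called in opposite directions, higher untreated (0.28) and lower with TNF (-0.29, adjusted p = 0.016), where the 2 groups overlapped. The call with TNF was lost without M3 replicate 1 (-0.19, adjusted p = 0.14), M3 replicate 2 (adjusted p = 0.065) or WT replicate 3 (adjusted p = 0.083), so neither EGLN3 call held in every fit. Among enzymes and lactate genes, GAPDH (-0.03), ENO1 (-0.04), PGAM1 (0.07) and LDHA (0.04) were not called with TNF. The largest differences kept their direction: CA12 (2.26), ANGPTL4 (1.79), CA9 (1.43), NDRG1 (1.28) and PDK1 (1.21) were higher, and SLC2A3 (-3.96) was lower.

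Set against untreated cells of the same line, some of the 44 genes were lower with TNF in M3 cells. By edgeR's quasi-likelihood test, 7 of the 44 genes were lower and 0 were higher, against 0.278% lower and 1.10% higher among all genes (1.38% in either direction). With DESeq2 9 were lower and 0 higher, where 67 and 242 of all 19038 genes were. At an unadjusted p under 0.05, 27 were lower and 0 higher, where 4.70% and 4.63% of all genes were. In all, 39 of the 44 log2 fold changes were below 0, with a median of -0.172 against -0.003 for all genes. The 7 were 3 secreted or noncoding products (ANGPTL4, ADM and MIR210HG), both oxygen sensors (EGLN1 and EGLN3), PFKFB4 and KDM3A.

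ADM had 27.67, 29.91 and 33.43 CPM in M3 cells with TNF and 47.63, 45.41 and 50.59 in untreated M3 cells. Every treated library was below every untreated one (log2 fold change -0.66, SE 0.074, adjusted p = 9.1e-07). ADM was also lower with TNF without overlap in WT (-0.24, adjusted p = 0.078) and in N108 (-0.27, adjusted p = 0.095). By edgeR's quasi-likelihood test it was called in neither, so its fall was not confined to M3. MIR210HG had 4.372, 6.355 and 6.692 CPM with TNF and 10.11, 8.923 and 9.798 untreated. It too was lower without overlap (-0.74, SE 0.14, adjusted p = 0.0063), and treated replicate 1 was the lowest. ANGPTL4 had 9.777, 13.26 and 15.95 CPM with TNF and 22.15, 19.96 and 23.68 untreated, and was lower without overlap (-0.76, SE 0.15, adjusted p = 0.022). The ANGPTL4 call was lost with only the groups compared (adjusted p = 0.15) and without a count filter (adjusted p = 0.056). In WT, MIR210HG (-0.35, adjusted p = 0.23) and ANGPTL4 (-0.28, adjusted p = 0.51) were lower without overlap, though not called by edgeR's quasi-likelihood test. In N108 the groups overlapped for both (0.04 and -0.12). EGLN3 had 6.8, 7.339 and 9.261 CPM with TNF and 12.94, 10.99 and 12.11 untreated (-0.62, SE 0.099, adjusted p = 0.00025). PFKFB4 (-0.41, adjusted p = 0.02), EGLN1 (-0.29, adjusted p = 0.025) and KDM3A (-0.24, adjusted p = 0.028) were lower by less, and KDM3A lost its call with only the groups compared (adjusted p = 0.051).

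The number of genes called lower in M3 depended on single libraries. It was 4 without treated replicate 1 (18 among all genes), 3 without untreated replicate 1 (35) and 4 without untreated replicate 2 (33), and 6 without each of the other 3. ADM, EGLN3 and MIR210HG were lower in all 6 of these fits, and the other 4 genes each lost their call in at least 1. Only those 3 of the 7 were called under every alternative run. Transcript GC content moved with this comparison: across all genes the log2 fold change had a Spearman correlation of -0.2711 with GC, and the 44 genes had a median GC of 52.67% against 49.01% for all tested. With each library's GC trend removed 7 of the 44 were still lower, although EGLN1 was not among them (adjusted p = 0.1).

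In WT cells TNF raised 1 of the 44 genes and lowered 0 by edgeR's quasi-likelihood test, against 2.03% and 3.15% of all genes (5.18% in either direction). Unadjusted p-values under 0.05 numbered 5 higher (9.53% of all genes) and 2 lower (8.90%). DESeq2 called 3 higher and 0 lower, where 543 and 629 of all 19038 genes were. The gene was DDIT4, with 66.89, 68.7 and 72.34 CPM with TNF and 54.65, 53.24 and 58.26 untreated (0.33, SE 0.071, adjusted p = 0.0059). Its groups did not overlap, and the call was lost without treated replicate 3 (adjusted p = 0.054). Without treated replicate 1, 3 of the 44 genes were called higher, where 413 of all 19417 genes were. In N108 cells 2 were higher and 0 lower, against 1.10% and 0.0998% of all genes (1.20% in either direction). DESeq2 called 2 and 1, where it called 290 and 57 of all 19038 genes. Unadjusted p-values under 0.05 numbered 3 higher (8.81% of all genes) and 3 lower (6.73%). DDIT4 had 107, 123.5 and 93.09 CPM in N108 with TNF and 89.41, 86.08 and 83.83 untreated (0.32, SE 0.070, adjusted p = 0.016). VEGFA was the other (0.25, SE 0.059, adjusted p = 0.023). Without N108 treated replicate 2, or untreated replicate 2 or 3, neither gene was called. Without untreated replicate 1 there was 1 (176 of all 19414 genes were higher), and without treated replicate 3 there were 5 (906 of all 19402). With N108 and its own untreated libraries fitted alone neither passed (adjusted p = 0.13 for DDIT4 and 0.23 for VEGFA). HIF1A was not called with TNF in any line: it averaged 217 ± 12.13 CPM in N108 with TNF and 224.1 ± 5.274 untreated, 258.4 ± 8.039 in M3 with TNF and 243.7 ± 11.84 untreated, and 230 ± 10.44 in WT with TNF and 207.7 ± 7.04 untreated. In WT the HIF subunits were higher with TNF without overlap, though not called by edgeR's quasi-likelihood test. These were HIF1A (0.15, adjusted p = 0.078), EPAS1 (0.145, adjusted p = 0.055) and ARNT (0.076, adjusted p = 0.36). In N108 and in M3 the groups overlapped for each subunit.

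**Figure D4:**
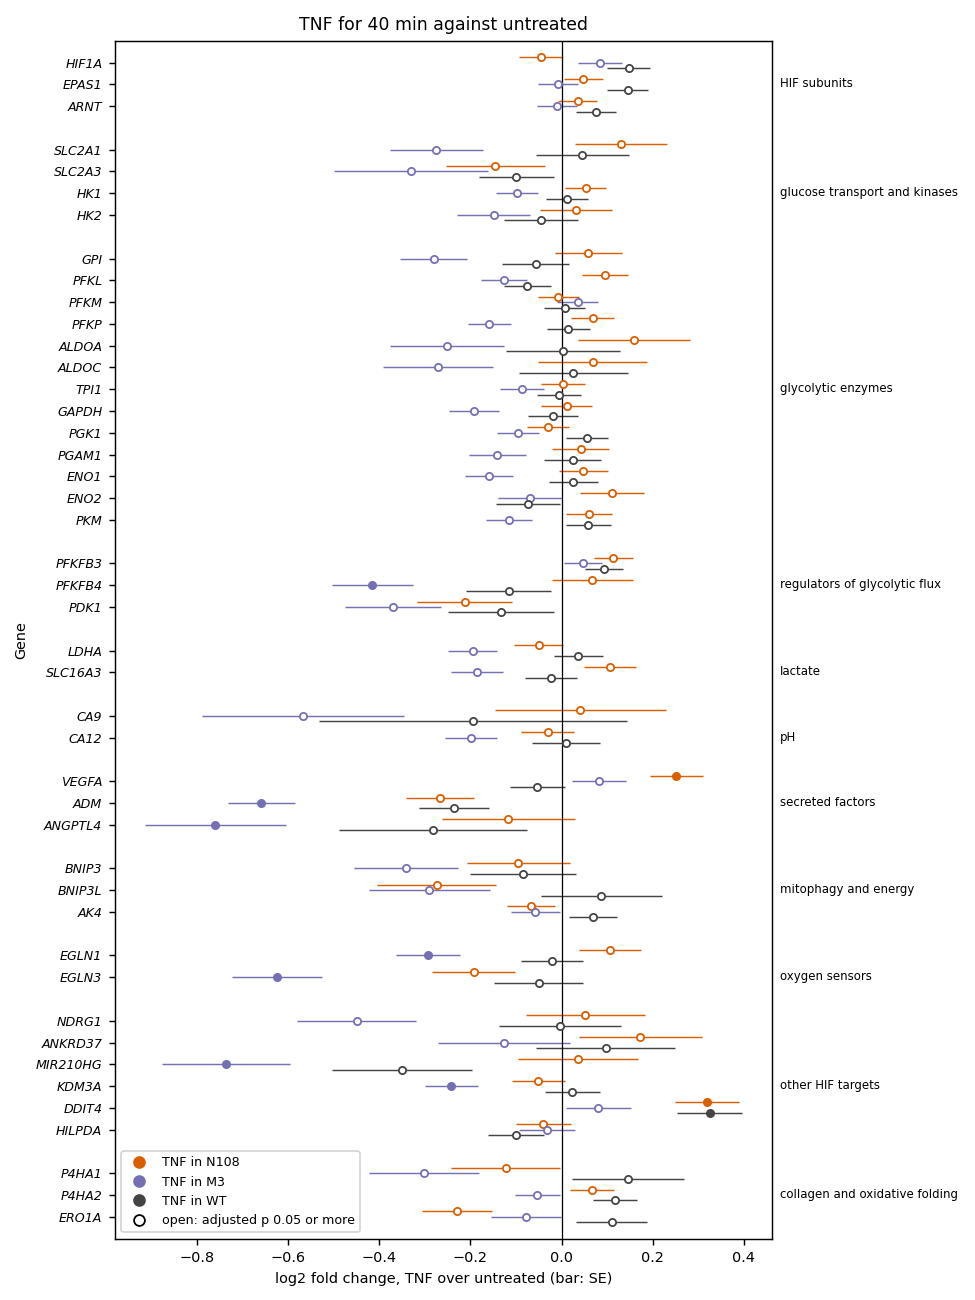
Log2 fold change of each of the 44 genes with TNF against untreated cells of the same line, in N108, M3 and WT, grouped by role, with bars of 1 SE from edgeR and filled points for genes called at an adjusted p under 0.05. In M3, 39 of 44 points lie left of 0 and 7 are called, while in N108 and WT the points scatter on both sides.

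Whether the response to TNF differed between lines was tested as an interaction. Between M3 and WT no gene of the 44 passed by edgeR's quasi-likelihood test, against 0.284% higher and 0.0315% lower among all genes (0.315% in either direction). At an unadjusted p under 0.05, 19 were lower and 0 higher, where 3.37% and 5.53% of all genes were. DESeq2 called 2 lower (20 of all 19038 genes), as many as edgeR did without M3 treated replicate 3 (7 of all 19402). Of the 44 differences 40 were below 0, with a median of -0.198 against -0.018 for all genes. EGLN3 (-0.57, SE 0.14, adjusted p = 0.072) and ADM (-0.42, SE 0.11, adjusted p = 0.084) came nearest. With the GC trend removed 2 were called lower (60 of all 19038 genes), and without a count filter 3 (29 of all 37598). A difference between the M3 and WT responses of single genes thus depended on the tool and filter.

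Between N108 and WT, 1 of the 44 responses was higher and 0 lower, against 2.03% and 0.583% of all genes (2.62% in either direction). DESeq2 called 1 and 1, where it called 558 and 582 of all 19038 genes. Unadjusted p-values under 0.05 numbered 2 higher (9.94% of all genes) and 2 lower (11.6%). VEGFA had 59.34, 69.47 and 55.96 CPM with TNF and 50.03, 52.3 and 52.73 untreated in N108 cells. In WT cells it had 46.3, 46.54 and 44.99 CPM with TNF and 48.26, 46.41 and 48.34 untreated. The treated N108 libraries were all above the untreated ones and the WT groups overlapped, with a difference of responses of 0.305 (SE 0.084, adjusted p = 0.047). The call was lost in 11 of 12 fits that each left out 1 library and with the GC trend removed (0.21, adjusted p = 0.14). The exception, without N108 treated replicate 3, called 4 of the 44 higher and 2 lower, where 1196 and 1234 of all 19402 genes tested were. Across all genes this difference of responses had a Spearman correlation of 0.5069 with GC content.

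Other genes of the same pathways followed the 44 in part. Of 41 further HIF targets tested, 26 were higher and 3 lower in untreated N108 than in WT, where 20.9% and 21.6% of all genes were. In M3, 24 were higher and 6 lower, where 26.1% and 26.8% of all genes were. PAM, which amidates peptide hormones such as adrenomedullin, was higher by 1.11 in N108 and by 1.53 in M3. STC1, the secreted hormone stanniocalcin, had 5.035, 3.544 and 5.054 CPM in N108, 0.4673, 0.6827 and 0.8939 in M3 and 168.1, 165.3 and 162.1 in WT. It was lower than WT in every mutant library, by -5.20 in N108 (SE 0.11, adjusted p = 3.3e-18) and by -7.92 in M3 (SE 0.14, adjusted p = 1.4e-19), more than any of the 44. BHLHE40, a transcriptional repressor, was lower in M3 (-1.04). Of 14 further genes of the HIF system, 4 were higher and 2 lower in N108 (42.86% called, against 42.4% of all genes) and 3 were higher and 4 lower in M3 (50% called, against 52.9%), which is near the share of all genes. Among them EGLN2, the third hydroxylase, was lower in both (-0.52 and -0.80).

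Further genes of glycolysis, pyruvate and lactate did not lean one way: of 31 tested, 10 were higher and 8 lower in N108, and 9 were higher and 10 lower in M3. These are 58.06% and 61.29% of the list, against 42.4% and 52.9% of all genes. PGM1, which links glycogen to glycolysis, was higher by 0.84 and 0.97. SLC2A6, a further sugar transporter, was lower by -0.61 and -0.99, and PDHX, a part of the pyruvate dehydrogenase complex, by -0.43 and -0.59. With TNF in M3, 4 of the 41 further HIF targets were higher and 3 lower, where 1.10% and 0.278% of all genes were. At an unadjusted p under 0.05 the list had 4 higher and 16 lower, where 4.63% and 4.70% of all genes were. EFNA1, an ephrin that TNF induces in many cells, had 76.54, 76.38 and 77.98 CPM in M3 with TNF and 20.61, 20.64 and 21.96 untreated (1.87, SE 0.074, adjusted p = 8.1e-16). None of the HIF system genes or of the further glycolysis genes was called in M3 with TNF by edgeR, and at an unadjusted p under 0.05 they numbered 1 and 4, all higher.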

How the data were processed

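Reads of 50 bp, paired, were trimmed with Trim Galore 0.6.6, aligned to hg38 with STAR 2.7.8 and counted with featureCounts of Subread 2.0.1, and DESeq2 1.38.3 was used, per the submitters' processing notes. The deposited table holds whole-number counts per gene, not normalized by the authors. A second deposited table, of log2 normalized values, was looked at and not used for any test. Counts were normalized by TMM, filtered by filterByExpr (minimum count 10) and fitted in edgeR 4.0.16 (R 4.3.3) with 1 mean per group and 18 libraries (12 residual degrees of freedom), and tested by the robust quasi-likelihood test with Benjamini-Hochberg adjustment over 19038 genes, which hold 99.97% of the counts. CPM (counts scaled to the same library total, with TMM) describe levels. The test was checked on simulated data, with 100 genes changed by 1 on the log2 scale and 100 changed by less. For M3 against WT untreated it called 78 and 62 of them, for TNF in M3 87 and 66, and for the M3 interaction 78 and 53. The smaller changes were thus often missed. Unchanged genes made up 5.4%, 6.1% and 7.7% of its calls. Genes given library by library were HIF1A, EPAS1, ARNT, GAPDH, those with the largest called changes in 3 comparisons, and any called in an interaction; EGLN3, DDIT4, STC1 and EFNA1 were added after their values were seen. The 44 genes and the further lists were chosen with earlier results of these data known. Alternatives were another size factor, DESeq2 1.42.0, other filters, a replicate block, GC trends removed, only the groups compared, and leaving out each library. Gene positions, exon lengths and GC content come from the GENCODE annotation. Pseudogene rows of GAPDH held 1.49% of the counts of their parent gene, those of LDHA 2.532% and those of AK4 2.272%.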

Additional observations from a re-analysis of the deposited data

Results flagged for a closer look

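The response of VEGFA to TNF differed between N108 and WT cells by 0.305 on the log2 scale in a test of the difference itself (SE 0.084, adjusted p = 0.047 by edgeR's quasi-likelihood test, n = 3 libraries in each of the 4 groups). VEGFA had 59.34, 69.47 and 55.96 CPM with TNF and 50.03, 52.3 and 52.73 CPM untreated in N108 cells, and 46.3, 46.54 and 44.99 CPM with TNF and 48.26, 46.41 and 48.34 CPM untreated in WT cells. The part of transcript GC content in this difference was not tested beyond the fit with the GC trend removed, which gave 0.21 (adjusted p = 0.14). The call was also lost with the replicate block (adjusted p = 0.064) and with only the groups compared (adjusted p = 0.055). It was lost in 11 of the fits that each left out 1 library. It held with DESeq2, with its size factors and with the other filters.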

How the results depend on the processing

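No call of a single gene changed direction under these alternatives. Counts of the 44 genes called moved by more than 1.5 times only as follows, mostly where few were called. Higher with TNF in WT (1) became 2 with DESeq2 size factors, 3 with DESeq2, 3 with the GC trend removed and 3 with that and the replicate block. Lower with TNF in WT (0) became 2 without a filter and 2 with only the groups compared. Higher with TNF in N108 (2) became 0 with only the groups compared, and lower (0) became 1 with DESeq2, 3 without a filter, and 1 with the GC trend removed, with or without the replicate block. Lower with TNF in M3 (7) became 12 without a filter, where all genes called lower went from 53 of 19038 to 81 of 37598. For the difference of responses, N108 higher (1) became 0 with the replicate block, with the GC trend removed, with both, and with only the groups compared, and lower (0) became 1 with DESeq2, without a filter and with only the groups compared. M3 lower (0) became 2 with DESeq2, 3 without a filter, and 2 with the GC trend removed, with or without the replicate block. Lower in N108 than in M3 (2) became 4 under a filter of 1 CPM in 3 libraries. The cause was not tested.

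Leaving out 1 library at a time gave, for N108 against WT untreated, 29 to 31 higher and 4 lower; with TNF, 31 to 34 and 4 to 5. M3 against WT gave 23 to 26 higher and 6 to 8 lower untreated, and 18 and 8 to 10 with TNF. N108 against M3 gave 14 to 16 and 2 to 3. TNF gave 0 higher and 3 to 6 lower in M3, 0 to 5 and 0 to 1 in N108, and 0 to 3 and 0 in WT. The difference of responses gave 0 to 4 and 0 to 2 for N108, and 0 and 0 to 2 for M3. The 5, 4 and 2 for N108 came from the fit without its treated replicate 3, where more of all genes were called too. Same-numbered libraries did not deviate together across all genes (correlations of -0.063 to 0.065), with N108 and M3 not set against each other. This does not settle whether the numbers pair the libraries. The replicate block left 31 higher in N108 untreated, 28 in M3 untreated and 9 lower with TNF in M3. GC content differed within groups as well: the correlation of deviations with GC was 0.4544 in N108 with TNF replicate 2 and -0.5168 in its replicate 3, and 0.4639 in untreated M3 replicate 3 and -0.3426 and -0.3095 in the other 2.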
